A study of Rattus norvegicus with 32 samples.

Results

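The 9 enzymes described here carry out steps of the citric acid cycle or of its shuttle to the cytosol, and they were chosen by name: Cs, Idh3a, Idh2, Ogdh, Sucla2, Suclg1, Fh, Mdh1 and Mdh2. Of these, 8 had a row among the 12901 genes of the deposited count table, and Ogdh, a subunit of oxoglutarate dehydrogenase, was not analysed here. All 8 passed the filter on low counts, which 11594 genes passed in all. Their mRNA was measured in the gastrocnemius of male rats aged 20 weeks, a large muscle of the calf in which fast fibres predominate.

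The libraries were of knockout rats lacking UCP1 after 2 weeks at 4 °C (KO_4C, 9 libraries), knockout rats at room temperature (KO_RT, 9 libraries), control rats after the same cold exposure (control_4C, 7 libraries) and control rats at room temperature (control_RT, 7 libraries). UCP1 lets protons leak back into the mitochondria of brown fat, which turns their energy into heat, and the design asks how muscle responds to cold with and without it. The rats were chow-fed, and the labels call the controls both control and wild-type. They give neither the strain nor the allele of the knockout, and they do not say whether cold and room-temperature libraries came from separate animals, so p-values measure the spread between these libraries. Ucp1 mRNA was not analysed here and so gave no check of the genotypes.

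The reads came from the 3′ ends of transcripts, and levels are given in CPM, counts scaled to a common library size, which compare libraries for a given enzyme. Library totals ran from 7275508 to 25846976 counts with a median of 13065240, and the lowest count of any of the 8 enzymes in any library was 440, for Fh. The defining muscle genes Ckm, Acta1 and Mb were abundant, with median counts of 240133, 535599 and 63895. A few libraries stood apart from the rest of their groups: KO_RT replicates 1 and 3, in the columns KO8 and KO10, scored 65.6 and 52.0 on the first principal component of all tested genes, while the other 7 KO_RT libraries scored -14.6 to 4.93. In control_RT, replicates 2 and 3 scored 60.0 and 41.3, and the other libraries of that group 12.2 to 32.8. That component held 21.7% of the variance. For the 8 enzymes, calls and directions that changed without KO_RT replicates 1 and 3 are given with and without them. For the genes of the lists below, lost calls are given, and gained calls and changed directions were not followed.

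The citric acid cycle oxidises acetyl groups from sugar, fat and amino acids to carbon dioxide in the mitochondrial matrix, and passes the electrons to the respiratory chain. In skeletal muscle it is more active in slow, oxidative fibres than in fast, glycolytic ones, and citrate synthase activity is a common measure of mitochondrial content. Mitochondrial and cytosolic malate dehydrogenase together carry the reducing equivalents of glycolysis into the mitochondrion through the malate-aspartate shuttle.

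With cold some of the 8 enzymes rose and others fell, and none passed the test as lower in both genotypes. In knockout rats Cs, Idh2 and Mdh1 rose and Idh3a fell, so that 4 of the 8 enzymes passed the test, where 13.8% of all tested genes did (7.49% higher and 6.28% lower). In control rats Cs, Idh2, Fh and Mdh1 rose and Mdh2 fell, so that 5 of the 8 passed, where 20.7% of all tested genes did (12.4% higher and 8.28% lower). The median log2 fold change of the 8 enzymes was 0.05 in knockout rats, beside 0.01 over all tested genes, and 0.07 in control rats, beside 0.03 over all tested genes. Without KO_RT replicates 1 and 3 the median of the 8 enzymes in knockout rats was -0.12. The summed level of the 8 enzymes was 6406 to 8468 CPM in KO_4C, against 6880 to 8467 CPM in KO_RT, and 5778 to 8186 CPM in control_4C, against 6462 to 7825 CPM in control_RT. These sums overlapped in both genotypes. Mdh2 was their largest part, at a mean of 4208 CPM over the 32 libraries, beside 992 CPM for Idh2, the next largest. The sums therefore follow Mdh2 more than the other enzymes. Each of the 8 enzymes also overlapped between cold and room temperature in both genotypes, where 1.66% of all tested genes did not overlap in knockout rats and 5.75% did not in control rats. In whole muscle, a smaller share of cells of a type and less RNA per cell cannot be told apart.

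**Figure D1:**
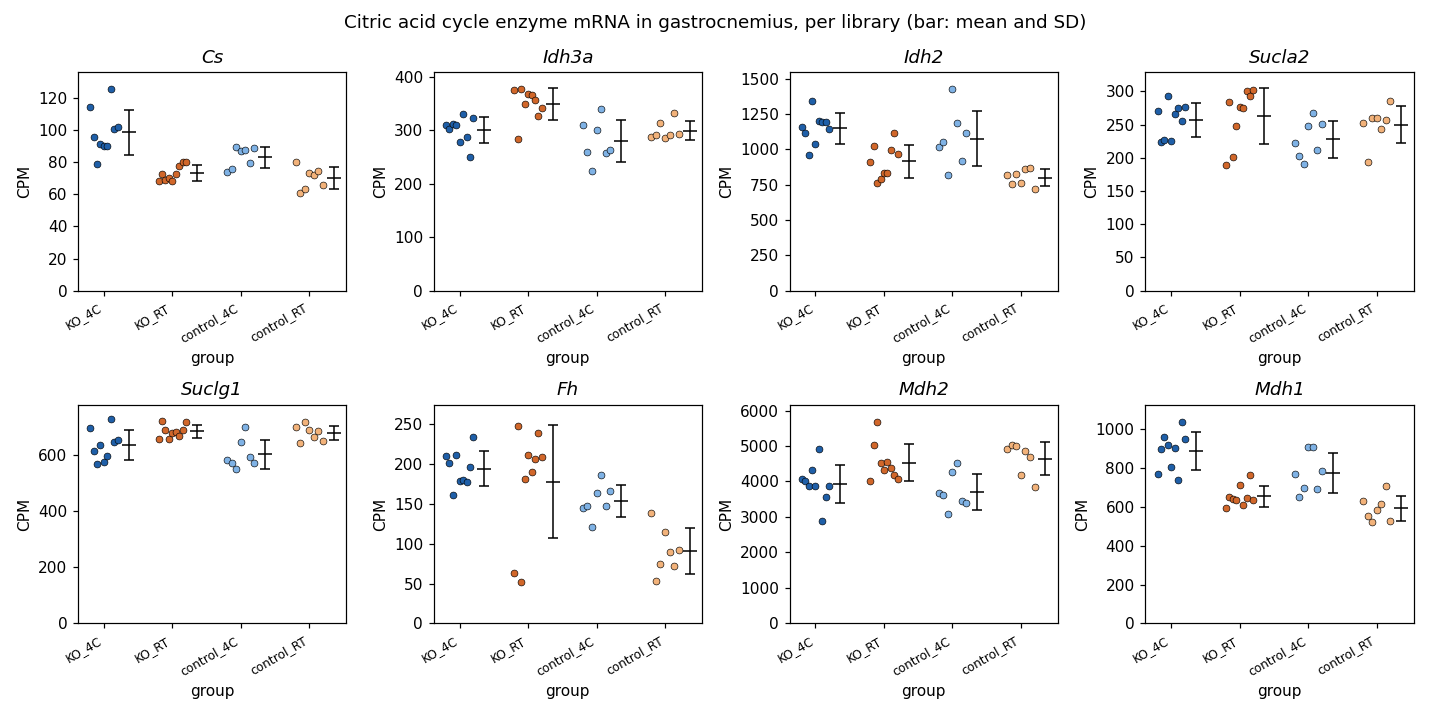
Level of each enzyme in CPM (vertical axis, from 0) in every library of the 4 groups (horizontal axis); the bar beside each group is its mean and SD. Cs, Idh2 and Mdh1 are higher at 4 °C in both genotypes, with means of 98.8 CPM in KO_4C against 73.3 CPM in KO_RT for Cs, while the highest Mdh2 values are at room temperature, and 2 KO_RT libraries are low for Fh.

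Cs encodes citrate synthase, which joins acetyl-CoA to oxaloacetate and starts the cycle. It spanned 79.0 to 125 CPM in KO_4C (median 95.6), against 68.2 to 80.4 CPM in KO_RT (median 72.6). In control rats it spanned 74.0 to 89.3 CPM in control_4C (median 86.8), against 60.8 to 80.2 CPM in control_RT (median 72.0). The cold libraries were the higher ones in both genotypes, and in each the groups overlapped at their edges. Cold raised Cs 1.35-fold in knockout rats (log2 0.43 ± 0.08 SE, adjusted p = 0.000132, 9 of 9 cold libraries above the room-temperature mean) and 1.19-fold in control rats (log2 0.25 ± 0.09 SE, adjusted p = 0.0382, 7 of 7). The call in control rats lay near the threshold: it was lost when the compared groups were fitted alone (adjusted p = 0.0512), and without any of 13 single libraries (KO_4C replicate 6, KO_RT replicates 5, 6 and 9, control_4C replicates 3, 4, 5, 6 and 7, and control_RT replicates 2, 3, 4 and 7), where the log2 value ran from 0.21 to 0.24 and the adjusted p reached 0.0904. Without KO_RT replicates 1 and 3 and control_RT replicates 2 and 3 together it was 0.17 (adjusted p = 0.200). The call in knockout rats stood under every alternative run.

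Isocitrate is oxidised by separate enzymes. Idh3a encodes the catalytic alpha subunit of the NAD-dependent enzyme of the cycle, and Idh2 the mitochondrial NADP-dependent enzyme, which supplies NADPH in the matrix. Idh2 spanned 959 to 1343 CPM in KO_4C (median 1162), against 765 to 1114 CPM in KO_RT (median 912). It spanned 821 to 1426 CPM in control_4C (median 1051), against 718 to 868 CPM in control_RT (median 821). Both cold groups were shifted upward, and in both genotypes the ranges overlapped. Idh2 rose 1.26-fold in knockout rats (log2 0.33 ± 0.09 SE, adjusted p = 0.00806, 9 of 9) and 1.34-fold in control rats (log2 0.43 ± 0.10 SE, adjusted p = 0.00207, 7 of 7).

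Idh3a spanned 251 to 330.1 CPM in KO_4C (median 310.0), against 283 to 377 CPM in KO_RT (median 356). It spanned 224 to 339.6 CPM in control_4C (median 264), against 286 to 332 CPM in control_RT (median 292). KO_RT replicates 2 and 8, at 283 and 326 CPM, lay within the KO_4C range and the other KO_RT libraries above it, while in control rats the ranges overlapped widely. Idh3a fell in knockout rats (log2 -0.22 ± 0.07 SE, adjusted p = 0.0415, 9 of 9 cold libraries below the room-temperature mean), and in control rats its log2 value was -0.10 ± 0.08 SE (adjusted p = 0.416, 4 of 7). The call in knockout rats was lost without KO_4C replicate 2, 5 or 8 or KO_RT replicate 3 or 4 (log2 -0.22 to -0.19, adjusted p 0.0537 to 0.0930), and without KO_RT replicates 1 and 3 together (log2 -0.18, adjusted p = 0.128).

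As a description chosen after these values were seen, the counts of the isocitrate dehydrogenases were set against each other within each library, which removes the scaling between libraries. There were 307 to 476 Idh2 counts per 100 Idh3a counts in KO_4C (median 373), against 203 to 362 in KO_RT (median 243). There were 328 to 474 in control_4C (median 367), against 244 to 296 in control_RT (median 263). The ranges overlapped in knockout rats and did not overlap in control rats. This ratio is formed from the same counts as the levels above and is not a separate result. Ratios of other genes were not taken for comparison.

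Succinyl-CoA ligase makes succinate and, with it, ATP or GTP. Its alpha subunit is encoded by Suclg1 and the ADP-dependent beta subunit by Sucla2. Suclg1 spanned 567 to 725 CPM in KO_4C (median 635), against 655 to 719 CPM in KO_RT (median 680.4), and its log2 value with cold was -0.11 ± 0.06 SE (adjusted p = 0.233). In control rats it spanned 549.8 to 699 CPM in control_4C (median 581), against 643 to 714 CPM in control_RT (median 682), with a log2 value of -0.17 ± 0.07 SE (adjusted p = 0.0642, 6 of 7 below the room-temperature mean). In each genotype most cold libraries lay below the room-temperature range and a few within or above it. Suclg1 in control rats passed the threshold under 5 alternatives, for example with DESeq2 or with RLE factors, and without any of 10 single libraries (KO_4C replicates 1, 6 and 7, KO_RT replicates 1, 5, 6 and 9, control_4C replicates 4 and 5, and control_RT replicate 7), where its log2 value ran from -0.23 to -0.18 and its adjusted p from 0.0155 to 0.0494.

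Sucla2 spanned 223 to 293 CPM in KO_4C (median 267), against 189 to 301 CPM in KO_RT (median 276), and 191 to 267 CPM in control_4C (median 223), against 193 to 285 CPM in control_RT (median 256). The groups overlapped over most of their ranges. Its log2 value with cold was -0.03 ± 0.09 SE in knockout rats (95% interval -0.22 to 0.15, adjusted p = 0.851) and -0.14 ± 0.10 SE in control rats (95% interval -0.34 to 0.07, adjusted p = 0.375).

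Fh encodes fumarase, which hydrates fumarate to malate, and of the 8 enzymes it spanned the widest range relative to its level over the 32 libraries. It spanned 161 to 234 CPM in KO_4C (median 196), against 52.3 to 248 CPM in KO_RT (median 206). It spanned 120.4 to 186 CPM in control_4C (median 148), against 53.4 to 139 CPM in control_RT (median 89.7). The KO_RT libraries lay in separate ranges: replicates 1 and 3 held 63.1 and 52.3 CPM, and the other 7 held 181 to 248 CPM. In control rats Fh rose 1.70-fold with cold (log2 0.76 ± 0.24 SE, adjusted p = 0.0236, 7 of 7). That call was lost without control_RT replicate 2 (log2 0.66, adjusted p = 0.0589) or replicate 6 (log2 0.71, adjusted p = 0.0505). In knockout rats the log2 value was 0.13 ± 0.21 SE (95% interval -0.30 to 0.56, adjusted p = 0.744), and without KO_RT replicates 1 and 3 it was -0.13 ± 0.12 SE (adjusted p = 0.590).

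Malate is oxidised to oxaloacetate by malate dehydrogenase, in the matrix by the product of Mdh2 and in the cytosol by that of Mdh1. Mdh2 spanned 2886 to 4904 CPM in KO_4C (median 3873), against 4026 to 5677 CPM in KO_RT (median 4368). It spanned 3086 to 4514 CPM in control_4C (median 3632), against 3832 to 5039 CPM in control_RT (median 4854). The cold libraries lay lower, with overlap in both genotypes. Mdh2 fell in control rats (log2 -0.32 ± 0.10 SE, adjusted p = 0.0183, 7 of 7 below the room-temperature mean), and this call was lost when KO_RT replicates 1 and 3 and control_RT replicates 2 and 3 were left out together (log2 -0.29, adjusted p = 0.0604). In knockout rats its log2 value was -0.20 ± 0.09 SE (adjusted p = 0.120, 8 of 9). Without KO_4C replicate 6, whose 4904 CPM was the highest of its group, the value in knockout rats was -0.26 and passed the threshold (adjusted p = 0.0421).

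Mdh1, the cytosolic enzyme, spanned 738 to 1035 CPM in KO_4C (median 899), against 592 to 764 CPM in KO_RT (median 637). It spanned 651 to 905 CPM in control_4C (median 767), against 523 to 707 CPM in control_RT (median 581). The cold libraries were the higher ones, and each pair of groups overlapped at its edges. Mdh1 rose 1.36-fold in knockout rats (log2 0.44 ± 0.08 SE, adjusted p = 0.000148, 9 of 9) and 1.31-fold in control rats (log2 0.39 ± 0.09 SE, adjusted p = 0.00206, 7 of 7). Mdh1 and Idh2 passed the threshold in both genotypes under every alternative run.

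The cytosolic and mitochondrial malate dehydrogenases thus had log2 values of opposite sign with cold. A ratio of the same counts within each library, chosen after their values were seen, describes this again and is not a separate result. There were 18.33 to 29.1 Mdh1 counts per 100 Mdh2 counts in KO_4C (median 22.2), against 11.2 to 18.33 in KO_RT (median 14.7). There were 17.9 to 23.2 in control_4C (median 20.9), against 10.5 to 15.0 in control_RT (median 12.8). The ranges met at their edges in knockout rats and did not overlap in control rats, and ratios of other genes were not taken for comparison. No test was made of this ratio, and since its terms are counted at different 3′ ends only its differences between libraries can be read.

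**Figure D2:**
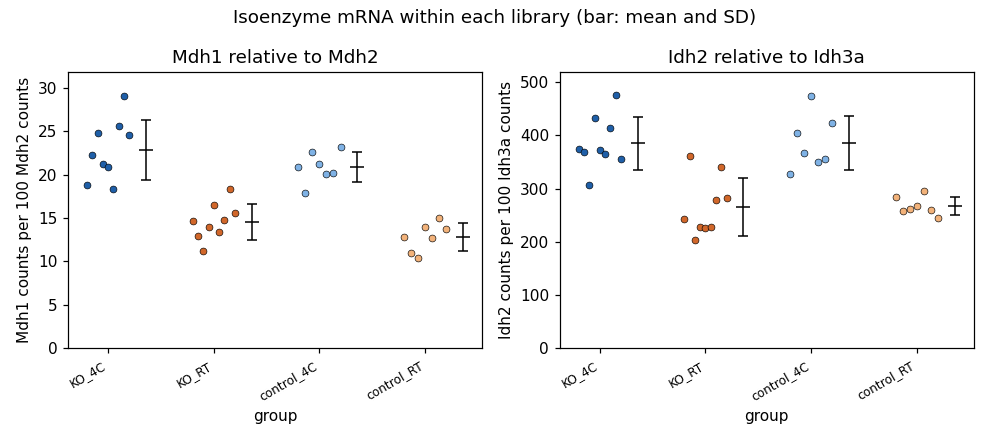
Mdh1 counts per 100 Mdh2 counts and Idh2 counts per 100 Idh3a counts (vertical axes, from 0) in every library of the 4 groups (horizontal axis), with the mean and SD of each group. Both ratios are higher at 4 °C, with medians of 22.2 in KO_4C against 14.7 in KO_RT and 20.9 in control_4C against 12.8 in control_RT for Mdh1 over Mdh2.

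**Figure D3:**
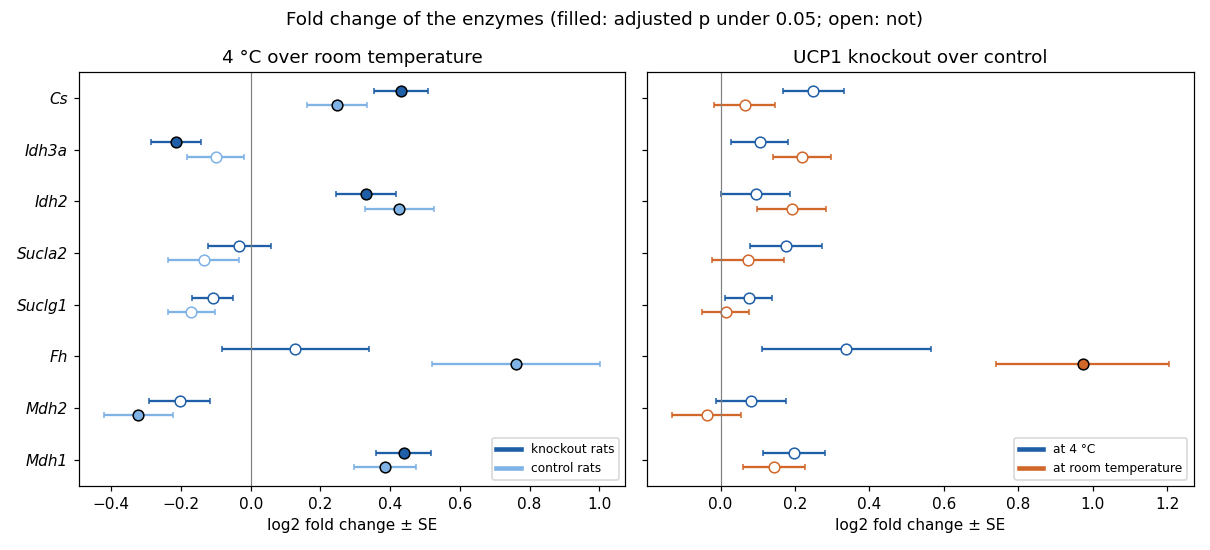
Log2 fold change of each enzyme (horizontal axis, bars ± SE) with cold in knockout and control rats (left) and for knockout over control rats at 4 °C and at room temperature (right); filled points have an adjusted p under 0.05. With cold, Cs, Idh2 and Mdh1 lie above 0 and Mdh2 and Idh3a below 0 in both genotypes; for knockout over control, the filled point is Fh at room temperature, at 0.97.

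Other measures were also compared between cold and room temperature, where 13.8% of all tested genes passed in knockout rats and 20.7% in control rats. Of 10 slow-fibre markers such as Myh7 and Tnni1, 9 rose in each genotype, with a median log2 fold change of 0.78 in knockout rats and 0.94 in control rats. Their summed level was 11302 to 22982 CPM in KO_4C against 6827 to 16099.5 CPM in KO_RT, and 13417 to 22842 CPM in control_4C against 7030 to 13236 CPM in control_RT. Of 9 fast-fibre markers, 4 fell in knockout rats and 5 in control rats. Of 8 macrophage markers, 5 rose in knockout rats and 4 in control rats, to sums of 130.1 to 238 CPM in KO_4C against 90.1 to 121 CPM in KO_RT and 152 to 255 CPM in control_4C against 111 to 175 CPM in control_RT. Of 7 adipocyte markers, 1 rose in knockout rats and 4 in control rats, to sums of 267 to 437 CPM in KO_4C against 138 to 618 CPM in KO_RT and 244 to 407 CPM in control_4C against 151 to 194 CPM in control_RT. Of 3 tested erythroid markers, Hbb, Alas2 and Slc4a1, 1 rose in knockout rats and 2 in control rats, with a median log2 fold change of 1.20 in knockout rats and 2.14 in control rats. Their summed level was 18.5 to 49.1 CPM in KO_4C against 3.44 to 34.9 CPM in KO_RT, and 20.5 to 180 CPM in control_4C against 1.5 to 19.2 CPM in control_RT, without overlap in control rats. Slc4a1 was at 0 in 5 libraries. Of 5 endothelial markers 1 rose in each genotype, and of 5 fibroblast markers 1 fell in knockout rats and 1 rose in control rats. Of 9 skeletal muscle markers, some of them also fast-fibre markers, 3 fell in knockout rats and 4 in control rats, and none rose. Of 6 intestinal epithelium markers, none passed in knockout rats and 1 rose in control rats. They summed to 153 to 234 CPM in KO_4C against 190 to 322 CPM in KO_RT. In control rats these sums were 188 to 798 CPM in control_4C against 182 to 636 CPM in control_RT. None of these slow-fibre, macrophage or adipocyte markers was at 0 in any library. The 10 most abundant genes took 23.0 to 25.3% of counts in KO_4C against 26.3 to 29.9% in KO_RT, and 23.5 to 25.2% in control_4C against 27.7 to 31.6% in control_RT, with no overlap in either genotype. The part of these measures in the enzyme results was not tested.

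Other cycle subunits and enzymes were followed as a list of 9 genes, of which 8 were tested: Idh3g, Dlst, Dld, Suclg2, Sdha, Sdhb, Sdhc and Sdhd. In knockout rats 1 of the 8 rose with cold and none fell, where 13.8% of all tested genes passed. The gene that rose was Sdhb, the iron-sulfur subunit of succinate dehydrogenase, which averaged 786 ± 100.6 CPM in KO_4C and 626 ± 61.5 CPM in KO_RT (log2 0.33 ± 0.08 SE, adjusted p = 0.00513). In control rats 2 rose and 1 fell, where 20.7% of all tested genes passed. Sdhd, which encodes a membrane anchor of succinate dehydrogenase, averaged 216 ± 47.3 CPM in control_4C and 86.2 ± 16.9 CPM in control_RT, without overlap (log2 1.33 ± 0.26 SE, adjusted p = 0.000509). Suclg2, the GDP-dependent beta subunit of succinyl-CoA ligase, averaged 80.9 ± 12.4 CPM in control_4C and 42.7 ± 17.3 CPM in control_RT (log2 0.92 ± 0.26 SE, adjusted p = 0.0108). Idh3g, a regulatory subunit of the NAD-dependent isocitrate dehydrogenase, fell to 150.5 ± 19.7 CPM in control_4C, against 212 ± 26.8 CPM in control_RT (log2 -0.50 ± 0.10 SE, adjusted p = 0.000747). The list's median log2 fold change was 0.09 in knockout rats and 0.07 in control rats.

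A list of 22 tested genes covered the malate-aspartate shuttle and pathways that fill or drain the cycle. With cold in knockout rats none rose and 4 fell, where 13.8% of all tested genes passed. In control rats 1 rose and 5 fell, where 20.7% of all tested genes passed. The list's median log2 fold change was -0.18 in knockout rats and -0.02 in control rats. The genes that fell included Adssl1 and Adsl, enzymes of the purine nucleotide cycle, which releases fumarate in working muscle. Adssl1 averaged 810 ± 84.6 CPM in KO_4C and 1225 ± 527 CPM in KO_RT, where the highest library held 2617 CPM (log2 -0.60 ± 0.13 SE, adjusted p = 0.00157), and 759 ± 87.0 CPM in control_4C and 1034 ± 63.8 CPM in control_RT without overlap (log2 -0.45 ± 0.15 SE, adjusted p = 0.0284). The call of Adssl1 in control rats was lost without control_4C replicate 3 or control_RT replicate 2. Adsl averaged 75.3 ± 6.40 CPM in KO_4C and 91.6 ± 13.3 CPM in KO_RT (log2 -0.28 ± 0.08 SE, adjusted p = 0.0131), and 69.7 ± 6.21 CPM in control_4C and 93.5 ± 9.09 CPM in control_RT (log2 -0.42 ± 0.09 SE, adjusted p = 0.000866). Without KO_RT replicates 1 and 3 the value of Adsl in knockout rats was -0.20 (adjusted p = 0.0793).

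Me1, the cytosolic malic enzyme, which turns malate into pyruvate and makes NADPH, averaged 193 ± 18.0 CPM in KO_4C and 258 ± 38.7 CPM in KO_RT (log2 -0.42 ± 0.10 SE, adjusted p = 0.00526). It averaged 176 ± 37.2 CPM in control_4C and 259.9 ± 45.2 CPM in control_RT (log2 -0.56 ± 0.12 SE, adjusted p = 0.000871), so it fell in both genotypes. Ampd1, the muscle AMP deaminase, averaged 449 ± 90.3 CPM in control_4C and 693 ± 131 CPM in control_RT (log2 -0.63 ± 0.16 SE, adjusted p = 0.00491). The other genes past the threshold, named after their values were seen, were Slc25a11, the oxoglutarate carrier, which fell in knockout rats (log2 -0.25), and in control rats Me3, the mitochondrial NADP-dependent malic enzyme, which fell (log2 -0.56), and Idh1, the cytosolic isocitrate dehydrogenase, which rose (log2 0.56).

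The pyruvate dehydrogenase complex makes the acetyl-CoA that Cs uses. A list of 13 genes covered the complex, its kinases and phosphatases and the mitochondrial pyruvate carrier. With cold in knockout rats 2 rose and 1 fell, where 13.8% of all tested genes passed. In control rats 3 rose and 1 fell, where 20.7% of all tested genes passed. The list's median log2 fold change was 0.12 in knockout rats and 0.25 in control rats. Pdp1, a phosphatase that activates the complex, rose in both genotypes. It averaged 61.3 ± 11.3 CPM in KO_4C and 45.5 ± 10.6 CPM in KO_RT (log2 0.43 ± 0.12 SE, adjusted p = 0.0137), and 58.5 ± 5.66 CPM in control_4C and 40.6 ± 4.90 CPM in control_RT without overlap (log2 0.53 ± 0.14 SE, adjusted p = 0.00517). Without KO_RT replicates 1 and 3 the value of Pdp1 in knockout rats was 0.30 (adjusted p = 0.0517).

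In knockout rats Pdp2, the related phosphatase, averaged 7.00 ± 2.51 CPM in KO_4C and 3.66 ± 1.26 CPM in KO_RT (log2 0.93 ± 0.21 SE, adjusted p = 0.00248). Pdk2, a kinase that inactivates the complex, was near the lower limit of detection at 0.710 ± 0.443 CPM in KO_4C and 1.53 ± 0.758 CPM in KO_RT (log2 -1.07 ± 0.30 SE, adjusted p = 0.0145), and it lost its call without KO_RT replicate 3 (log2 -0.85, adjusted p = 0.0580), without KO_RT replicates 1 and 3 (log2 -0.79, adjusted p = 0.0982), and without these and control_RT replicates 2 and 3 (adjusted p = 0.104). In control rats Mpc2, a subunit of the mitochondrial pyruvate carrier, averaged 45.1 ± 8.26 CPM in control_4C and 15.2 ± 5.64 CPM in control_RT without overlap (log2 1.56 ± 0.30 SE, adjusted p = 0.000517). Pdhb, the beta subunit of the first enzyme of the complex, averaged 270.2 ± 39.2 CPM in control_4C and 195 ± 30.8 CPM in control_RT (log2 0.47 ± 0.14 SE, adjusted p = 0.0119). Pdk4, another such kinase, was named after its value was seen (log2 -0.85 in control rats, adjusted p = 0.0405). Its call was lost without control_4C replicate 1, 2, 3, 5, 6 or 7 or control_RT replicate 1, 2 or 6, and without KO_RT replicates 1 and 3 and control_RT replicates 2 and 3 together (adjusted p = 0.0642).

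Knockout and control rats were then compared at each temperature. At 4 °C none of the 8 enzymes passed the test, where 0.0518% of all tested genes did. An unadjusted p under 0.05 was reached by 2 of them, Cs and Mdh1, and DESeq2 called none. All 8 log2 values were above 0, with a median of 0.14 beside 0.02 over all tested genes. The share of all tested genes above 0 was not counted. Cs averaged 98.8 ± 14.1 CPM in KO_4C and 83.1 ± 6.61 CPM in control_4C (log2 0.25 ± 0.08 SE, 95% interval 0.08 to 0.41, adjusted p = 0.104). Mdh1 averaged 885 ± 97.2 CPM in KO_4C and 772 ± 102 CPM in control_4C (log2 0.20 ± 0.08 SE, 95% interval 0.03 to 0.37, adjusted p = 0.240). The KO_4C libraries lay mostly above the control_4C mean, 8 of 9 for Cs and 7 of 9 for Mdh1, and the groups overlapped.

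At room temperature 1 of the 8 enzymes passed the test, where 2.61% of all tested genes did (2.35% higher and 0.259% lower). This was Fh, at 178 ± 71.2 CPM in KO_RT and 90.6 ± 28.6 CPM in control_RT (log2 0.97 ± 0.23 SE, adjusted p = 0.0206, 7 of 9 above the control mean). Without KO_RT replicates 1 and 3 the value was 1.20 ± 0.13 SE (adjusted p = 4.83e-07), where 13.3% of all genes tested without those libraries passed. Those libraries held the lowest Fh of KO_RT, so leaving them out raised the mean of that group. Fh also passed when control_RT replicates 2 and 3 were left out with them, where 5.96% of all genes tested then passed. The call was lost without KO_RT replicate 8 (adjusted p = 0.0517), control_RT replicate 2 (adjusted p = 0.0661) or control_RT replicate 3 (adjusted p = 0.0579), and when the compared groups were fitted alone (adjusted p = 0.165). The largest of the other log2 values was that of Idh3a, at 349 ± 29.5 CPM in KO_RT and 299.6 ± 17.3 CPM in control_RT (log2 0.22 ± 0.08 SE, adjusted p = 0.118, 8 of 9). Those of Cs, Idh2, Sucla2, Suclg1, Mdh2 and Mdh1 ran from -0.04 to 0.19, with adjusted p from 0.280 to 0.939.

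Among the lists, Sdhd was also higher in knockout rats at room temperature, at 214 ± 96.9 CPM in KO_RT and 86.2 ± 16.9 CPM in control_RT (log2 1.31 ± 0.24 SE, adjusted p = 0.00936, lost when the compared groups were fitted alone, adjusted p = 0.0911). Aco1, the cytosolic aconitase, averaged 28.9 ± 4.66 CPM in KO_RT and 21.8 ± 3.45 CPM in control_RT (log2 0.41 ± 0.11 SE, adjusted p = 0.0383). Its call was lost without KO_4C replicate 1, KO_RT replicate 2, 4, 5, 7, 8 or 9, control_4C replicate 7 or control_RT replicate 2, 3, 4, 6 or 7, with log2 values of 0.33 to 0.41, and when the compared groups were fitted alone (adjusted p = 0.143). At 4 °C no gene of these lists passed the test between genotypes.

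The interaction, in which the cold response of control rats is subtracted from that of knockout rats, passed the threshold for none of the 8 enzymes, where 0.0259% of all tested genes passed. No enzyme had an unadjusted p under 0.05, and DESeq2 called none. For Cs the difference was 0.18 ± 0.12 SE on the log2 scale (95% interval -0.05 to 0.42, adjusted p = 0.516). For Fh it was -0.63 ± 0.32 SE (95% interval -1.29 to 0.02, adjusted p = 0.404). The intervals of the other 6 lay between -0.36 and 0.39, so for these enzymes a larger difference between the cold responses was outside the intervals. Without KO_RT replicates 1 and 3 the difference for Fh was -0.87 ± 0.18 SE and passed the threshold (adjusted p = 0.00244), where 6.28% of all genes tested without those libraries did. Those libraries held the lowest Fh of KO_RT, so leaving them out raised the mean of that group and narrowed its spread. The pass therefore depends on that choice of libraries. With control_RT replicates 2 and 3 left out as well, it was -0.72 ± 0.16 SE (adjusted p = 0.00975), where 2.42% of all genes tested then passed.

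The level of Fh went with the first principal component across libraries. KO_RT replicates 1 and 3, with Fh at 63.1 and 52.3 CPM, scored 65.6 and 52.0. The control_RT libraries, with Fh at 53.4 to 139 CPM, scored 12.2 to 60.0. The other KO_RT libraries scored -14.6 to 4.93, and the cold libraries scored -33.2 to -9.84 in KO_4C and -23.9 to -9.49 in control_4C. The control_RT libraries and KO_RT replicates 1 and 3 thus had higher scores than every other library, and lower Fh than every other library but 1 of control_4C at 120.4 CPM. KO_RT replicates 1 and 3 were also the lowest of their group for Sucla2 (189 and 201 CPM) and were low for Sdhd (99.5 and 62.8 CPM), Suclg2 (24.4 and 22.0 CPM) and Mpc2 (8.32 and 7.06 CPM), all within or below the control_RT ranges. The labels give no batch or RNA quality, and the part of the component in the Fh result was not tested.

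**Figure D4:**
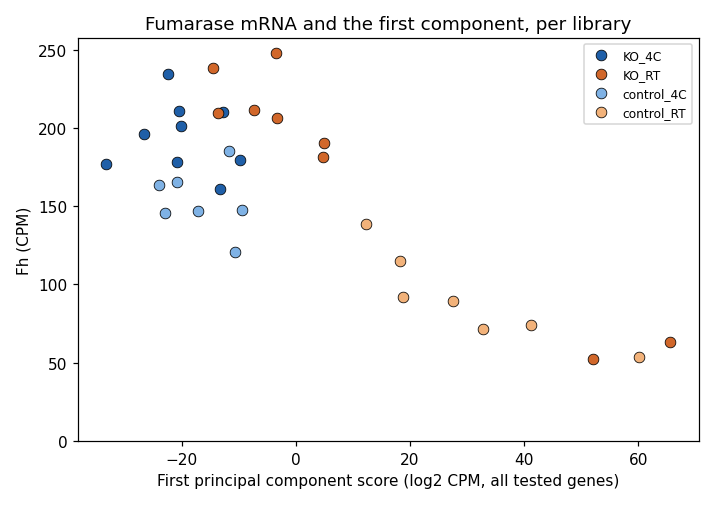
Fh level in CPM (vertical axis, from 0) against the score of each library on the first principal component of log2 CPM over all tested genes (horizontal axis), coloured by group. The 2 KO_RT libraries at 63.1 and 52.3 CPM lie at scores of 65.6 and 52.0 among the control_RT libraries, while the other KO_RT libraries lie near the cold libraries of both genotypes.

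Co-variation of the enzymes within groups was described next. With group means removed, 23 of the 28 pairs of enzymes had a Pearson r above 0 over the 32 libraries, with a median of 0.28. Pairs of other genes were not taken for comparison. The highest r was 0.78, for Sucla2 and Fh, followed by 0.64 for Cs and Suclg1. KO_RT replicates 1 and 3 were the lowest of their group for both Sucla2 and Fh, and r without them was not taken. The lowest r was -0.33, for Cs and Mdh2. Mdh2 and Idh3a, which lay lower in the cold, had an r of 0.46 with each other, and both had negative values with Cs. The pairs did not follow the direction of the cold response throughout. Suclg1 and Sucla2, also with negative log2 values in both genotypes, had r of 0.64 and 0.46 with Cs. With Mdh1 and Idh2, r was 0.35 and 0.26 for Mdh2 and 0.26 and 0.18 for Idh3a. These values describe libraries that share depth, normalization and the split along the first component.

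**Figure D5:**
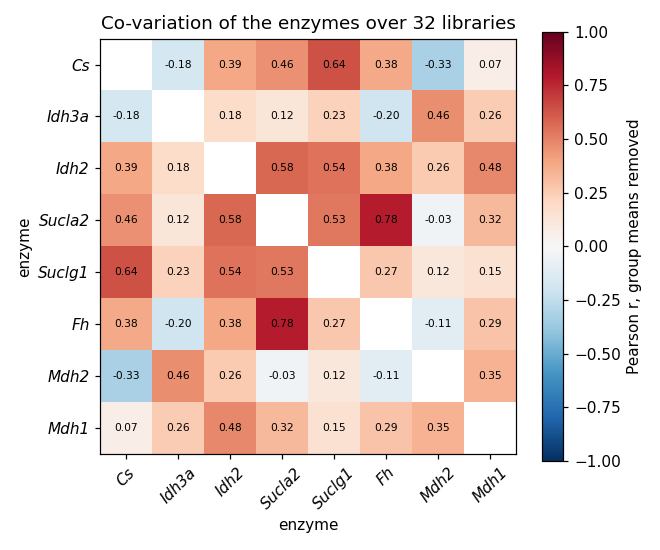
Pearson r between each pair of the 8 enzymes over the 32 libraries, on log2 CPM with group means removed; both axes list the enzymes, and colour runs from -1 to 1. Sucla2 and Fh form the highest pair at 0.78, and Cs and Mdh2 the lowest at -0.33.

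The genes most like the mean of the 8 enzymes, by the same measure over the 32 libraries, were Coq9 (r = 0.83), Atp5f1c (0.77), Acsl1 (0.76), Plekhb2 (0.76), Uqcrc1 (0.75), Ndufb11 (0.74), Ldhb (0.74) and Cox5b (0.73). Coq9 is needed to make coenzyme Q, Atp5f1c is a subunit of ATP synthase, and Uqcrc1, Ndufb11 and Cox5b are subunits of respiratory complexes. Acsl1 activates fatty acids, and Ldhb is the lactate dehydrogenase subunit typical of heart and slow muscle. Of the enzymes themselves, Idh2 and Sucla2 had the highest r with that mean, at 0.80 and 0.79, and Mdh2 the lowest, at 0.36. The mean includes each enzyme, which raises these values, so they cannot be set beside those of the other genes. Genes most like Fh, listed after its values were seen, included Rbm38 (0.96), Bola3 (0.96), Suclg2 (0.95) and Snx15 (0.94).

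The promoters of Cs, Idh2 and Mdh1, which rose with cold in both genotypes, are shown beside that of Mdh2, which fell in control rats, to set out which sequence elements they share. Each is the 250 bases before the gene's start in RefSeq on build GRCr8, 5′ to 3′ on the gene's strand. They lie at chr7:1348139-1348388 on the plus strand for Cs, and on the minus strand at chr1:143467249-143467498 for Idh2, chr14:99847228-99847477 for Mdh1 and chr12:26543842-26544091 for Mdh2. Capitals mark every match, on either strand, to any of 6 motifs: the element of estrogen-related receptors (AAGGTCA), the core of the NRF1 site (TGCGCA), the ETS core (CCGGAAG), the CCAAT box (CCAAT), the GC box (GGGCGG) and the cyclic AMP response element (TGACGTCA).
Cs: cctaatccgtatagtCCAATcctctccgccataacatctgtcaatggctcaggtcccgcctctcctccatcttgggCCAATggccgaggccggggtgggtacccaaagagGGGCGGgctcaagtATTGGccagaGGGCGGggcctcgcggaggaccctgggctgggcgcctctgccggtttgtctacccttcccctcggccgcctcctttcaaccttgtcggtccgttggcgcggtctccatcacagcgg
Idh2: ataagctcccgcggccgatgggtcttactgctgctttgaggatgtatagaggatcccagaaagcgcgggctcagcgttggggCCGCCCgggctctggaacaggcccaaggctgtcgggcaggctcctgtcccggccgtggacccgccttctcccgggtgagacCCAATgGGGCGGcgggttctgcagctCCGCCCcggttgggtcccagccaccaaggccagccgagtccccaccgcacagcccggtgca
Mdh1: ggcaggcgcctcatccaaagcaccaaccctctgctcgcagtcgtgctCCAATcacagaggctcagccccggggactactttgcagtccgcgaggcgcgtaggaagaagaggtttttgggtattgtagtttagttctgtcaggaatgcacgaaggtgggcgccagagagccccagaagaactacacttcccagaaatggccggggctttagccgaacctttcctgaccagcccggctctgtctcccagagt
Mdh2: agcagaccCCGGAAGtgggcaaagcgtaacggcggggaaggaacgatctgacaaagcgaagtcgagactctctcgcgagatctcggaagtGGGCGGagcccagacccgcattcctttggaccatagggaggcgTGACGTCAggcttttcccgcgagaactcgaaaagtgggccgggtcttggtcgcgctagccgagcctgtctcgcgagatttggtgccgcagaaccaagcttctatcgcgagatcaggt

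Promoters were found for 7 of the 8 enzymes, all but Idh3a. No matches to different motifs overlapped. The CCAAT box was in the promoters of Cs, Idh2, Fh and Mdh1, and it is in 34% of 33469 promoters of the same length. The GC box was in those of Cs, Idh2, Sucla2, Fh and Mdh2, and in 30.5% of all promoters. The ETS core and the cyclic AMP response element were each in the promoter of Mdh2 alone, and in 7.27% and 1.59% of all promoters. The element of estrogen-related receptors and the NRF1 core, which are in 3.99% and 6.14% of all promoters, were in none of the 7. Motif matches are a description of these letters, and binding was not measured.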

How the data were processed

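The authors deposited raw counts, whole numbers per Ensembl gene. They also deposited signal values, which are the same counts after division by a library's size factor (0.523 to 2.06, from the ratio of the files). The libraries were made with Lexogen QuantSeq from 500 ng of RNA and read 50 bp from the 3′ end, per the labels' protocols. R 3.4.3, DESeq2 1.18.1 and the build Rnor_6.0 are named in the submitters' processing notes; for the aligner, the counter and the treatment of reads that match several places, the answer is not given in the sources used here. Every count in the deposited table was even, so division by 2 was tried as an alternative. The signal table served only for gene symbols. No libraries of a group were duplicates, since the smallest chi-square per degree of freedom between any pair was 10.1.

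The analysis used edgeR 4.0.16 in R 4.3.3, with filterByExpr (minimum count 10), TMM factors and a robust quasi-likelihood fit over the 32 libraries with 1 mean per group and no covariate. Each contrast was adjusted by the Benjamini-Hochberg method over 11594 genes at 0.05. Every adjusted p is from this test unless DESeq2 1.42.0 is named. SE is the absolute log2 fold change over the square root of F, and 95% intervals use the t quantile at the degrees of freedom of the test. A count of libraries (9 of 9) says how many of the first group lay beyond the mean of the other. CPM use TMM factors and carry the SD. Counting error was not separated from the spread between libraries. In data simulated on the cold contrast of control rats, 94% of 100 genes changed by 1 on the log2 scale were called, 39% of 100 changed by 0.5, and 0.0621% of 11276 unchanged genes. The simulation changed 200 genes, whereas the measured contrast called 2399. The adjustment over all genes therefore differed, and these shares are not the power of the measured contrast. Co-variation used log2 CPM with a prior count of 2.

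Some listed genes are not reported here and were left out of the list counts. The enzymes, the lists and the alternatives were chosen with earlier results of these data known. Named genes were the enzymes, up to 3 genes per list and contrast, by smallest p among those called, and the 8 genes with a symbol and a mean of at least 5 CPM most like the mean of the enzymes. Alternatives were RLE factors, no filter, DESeq2, TMM factors computed after dropping the 20 most abundant genes, the compared groups alone, halved counts, replicate numbers as a block, leaving out KO_RT replicates 1 and 3 alone or with control_RT replicates 2 and 3, each library in turn, and a minimum of 20 CPM for likeness. KO_RT columns KO8 to KO17 carry replicate numbers 1 to 9 through the sample titles. The names KO8 and KO9 are also the descriptions of other KO_RT samples, so the numbers of these 2 columns serve only as names. Promoters came from RefSeq on GRCr8, matched by symbol.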

Additional observations from a re-analysis of the deposited data

How the results depend on the processing

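Of the 40 sets of values examined (the 8 enzymes and the 2 ratios, each in 4 groups), none had a single lowest or highest library past Dixon's 95% limit for its gap to the nearest other, a test that does not see 2 low libraries together, such as Fh in KO_RT. The count of enzymes past the threshold with cold in control rats was 5 and stayed between 3 and 6 when single libraries were left out; it was 3 without KO_RT replicates 1 and 3 and control_RT replicates 2 and 3. With cold in knockout rats it was 4, and 3 to 5 when single libraries were left out. Between genotypes at room temperature it was 1, and 0 to 1 when single libraries were left out; it was 0 when the compared groups were fitted alone. At 4 °C it was 0 under every alternative run. For the interaction it was 0, also without any single library, and 1 (Fh) without KO_RT replicates 1 and 3, with or without control_RT replicates 2 and 3. The interaction has no fit of the compared groups alone. Same-numbered libraries did not deviate together (r -0.224 to 0.187, and 1 of 16 numbers correlated best with its own), so the numbers showed no pairing. This cannot tell whether cold and room-temperature libraries came from the same animals. In KO_RT the numbers of the columns KO8 and KO9 serve only as names. With the replicate block the room-temperature count was 0 (Fh log2 0.84, adjusted p = 0.0994) and Idh3a in knockout rats was -0.21 (adjusted p = 0.0621); Aco1 at room temperature was 0.40 (adjusted p = 0.102). Idh3a also lost its call with no filter (adjusted p = 0.0559). Over all enzymes and contrasts, 34 of 1280 values with a library left out and 16 of 352 values under other settings changed their side of the threshold. Signs changed in 16 of 1632, none of them past the threshold. Fh with cold in knockout rats was -0.13 without KO_RT replicates 1 and 3, -0.13 also without control_RT replicates 2 and 3, and -0.0034 to 0.19 when single libraries were left out. Suclg1 between genotypes at room temperature was 0.0141 with all libraries. It was -0.0023 with TMM factors that left out the 20 most abundant genes, -0.0099 without KO_RT replicates 1 and 3, and -0.0141 to 0.0212 when single libraries were left out. Mdh1 in the interaction ran from -0.0011 to 0.10 when single libraries were left out. The median log2 value of the 8 enzymes with cold in knockout rats was -0.12 without KO_RT replicates 1 and 3. Over all genes, the count called between genotypes was 6 at 4 °C and 0 to 436 under other settings, 303 at room temperature and 0 to 1541 under other settings, and 3 for the interaction and 1 to 725 under other settings. When single libraries were left out it was 0 to 556 at 4 °C (556 without control_4C replicate 7), 80 to 792 at room temperature (80 without control_RT replicate 3, 792 without KO_RT replicate 3) and 0 to 226 for the interaction (226 without KO_RT replicate 3). The 8 genes most like the mean of the enzymes were the same at a minimum of 20 CPM. The cause of these shifts was not tested. The lowest count of an enzyme in a library was 440, and what depth adds to the spread between libraries was not measured.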
